A study of Mus musculus with 6 samples.

Results

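Triglyceride synthesis and glyceroneogenesis were followed through 8 genes, *Gpd1*, *Pck1*, *Gpam*, *Agpat2*, *Lpin1*, *Dgat1*, *Dgat2* and *Mogat1*, of the 19790 genes counted in gonadal white adipose tissue (gWAT), a visceral depot that lies against the reproductive organs. They were chosen by name, as enzymes of these pathways, with earlier results of these data known. Each was found in the table by its NCBI gene identifier. All 8 had enough counts to be tested. Each of 6 RNA-seq libraries came from 1 wild-type mouse of strain C57BL/6, with 3 mice kept on normal chow (NCD) and 3 on high-fat food (HFD), both over 8 weeks. The labels put the start of the diets at 6 weeks of age, the methods at 8 weeks, and the methods describe purchased male C57BL/6 mice. The methods also use WT for floxed mice without Cre, which the labels of these samples do not mention.

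White fat stores energy as triglyceride, which is built by adding fatty acyl chains to glycerol 3-phosphate in the endoplasmic reticulum. Because white adipocytes have little glycerol kinase, they make the glycerol backbone mostly from dihydroxyacetone phosphate, which comes from glucose or, during fasting, from pyruvate by way of phosphoenolpyruvate (glyceroneogenesis). Acyltransferases of the GPAT and AGPAT families add the first acyl chains, lipins remove the phosphate, and a diacylglycerol acyltransferase adds the last chain. Monoacylglycerol acyltransferases give a side entry that re-esterifies the products of lipolysis.

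The libraries held between 49575113 and 66360046 counts. NCD replicate 1 stood apart: 58.6% of its counts fell on 11 secretory genes of the seminal vesicle, against 11.2% and 2.30% in NCD replicates 2 and 3 and at most 0.121 CPM (counts scaled to a common library total) in an HFD library. The 10 adipocyte markers, among them *Adipoq* and *Plin1*, summed to 2203 CPM in NCD replicate 1 and to between 17350 and 26410 CPM in the other 5 mice, with no marker at 0 in any library. Adipocyte markers took 0.22% of the counts of NCD replicate 1 and 1.73% to 2.64% of those of the other mice, so that by its markers this library is mostly seminal vesicle RNA, against its tissue label. Macrophage markers summed to between 226 and 1039 CPM on NCD and between 3814 and 7115 CPM on HFD, and all 10 of them were higher on HFD without NCD replicate 1. In whole tissue, fewer adipocytes and less RNA per adipocyte cannot be told apart. Smooth muscle markers summed to 2756 CPM in NCD replicate 1 and to at most 651 CPM in any other mouse. Fold changes are therefore given with and without NCD replicate 1, and 5 of the 10 adipocyte markers were themselves lower on HFD without it. The part that these differences in cell types have in the values of the members was not tested.

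Promoters are shown for the members at the extremes of the comparison, *Mogat1* and *Agpat2*, which had the lowest fold changes, and *Pck1*, which had the highest. Each line holds the 250 bases before the transcription start in RefSeq's annotation of GRCm38.p6, read 5′ to 3′ on the gene's strand. *Mogat1* lies on the plus strand at chr1:78510810-78511059, *Agpat2* on the minus strand at chr2:26604418-26604667 and *Pck1* on the plus strand at chr2:173152823-173153072. Capitals mark ACGTCA, the core of the cAMP response element.
Mogat1: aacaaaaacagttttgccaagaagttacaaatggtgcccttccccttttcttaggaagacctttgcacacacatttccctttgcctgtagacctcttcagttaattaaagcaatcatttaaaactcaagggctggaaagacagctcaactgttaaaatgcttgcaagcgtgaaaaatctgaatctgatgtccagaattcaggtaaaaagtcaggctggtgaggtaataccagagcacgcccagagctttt
Agpat2: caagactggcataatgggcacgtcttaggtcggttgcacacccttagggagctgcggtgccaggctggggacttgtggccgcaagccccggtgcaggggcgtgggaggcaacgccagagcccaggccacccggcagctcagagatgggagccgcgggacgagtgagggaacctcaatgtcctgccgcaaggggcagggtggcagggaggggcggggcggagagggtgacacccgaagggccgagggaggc
Pck1: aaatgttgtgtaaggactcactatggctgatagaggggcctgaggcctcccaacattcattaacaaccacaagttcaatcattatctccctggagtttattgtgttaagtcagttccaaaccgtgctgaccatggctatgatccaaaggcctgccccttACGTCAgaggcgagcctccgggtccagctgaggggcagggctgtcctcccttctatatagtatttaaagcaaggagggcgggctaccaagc
The capitals of *Pck1* begin 91 bases before the start, and this promoter is a textbook target of cAMP signalling. The *Agpat2* stretch was richest in G and C at 69.2%, against 50.8% for *Pck1* and 41.2% for *Mogat1*. Windows were found for 5 members, the others being *Gpam* and *Lpin1*, and searched on both strands. ACGTCA was in windows of 2 of the 5 (*Pck1*, and 1 of the 2 windows of *Gpam*), against 6.47% of all 32851 windows. Members are counted per gene here, and the share over all is per window. That window of *Gpam* and the window of *Lpin1* lie before starts inside the gene spans given below. The E-box CACGTG was in none of the 5 and in 6.02% of all windows. The direct repeat AGGTCANAGGTCA was in none of the 5 and in 0.0335% of all windows, while the single site AGGTCA was in windows of *Gpam* and *Lpin1* and in 14.0% of all windows.

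*Gpd1* (NCBI gene 14555, chr15:99717587-99725014 in GRCm38.p6, as for the genes below), which reduces dihydroxyacetone phosphate to glycerol 3-phosphate, was lower in every HFD-fed mouse than in NCD replicates 2 and 3. It was measured at 485, 2168 and 2156 TMM-scaled CPM on NCD against 575, 531 and 377 on HFD. Values of the mice are given here and below in the order of replicates 1, 2 and 3, and TMM scaling corrects for genes that take up a large part of a library. NCD replicate 1 lay among the HFD-fed mice, and the other NCD-fed mice lay far above them. Means were 1603 ± 969 on NCD and 494 ± 104 on HFD (SD, n = 3 mice each), which is -1.70 as a log2 fold change (SE, the standard error, 0.61; adjusted p = 0.129 by the quasi-likelihood test of edgeR, Benjamini-Hochberg). Without NCD replicate 1, *Gpd1* fell 4.34-fold (log2 fold change -2.12, SE 0.24, edgeR adjusted p = 0.00746).

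*Pck1* (NCBI gene 18534, chr2:173153073-173159274), the cytosolic phosphoenolpyruvate carboxykinase and committed step of glyceroneogenesis, was the 1 member whose mean was not lower on HFD. Its values were 135, 461 and 967 TMM-scaled CPM on NCD against 624, 750 and 294 on HFD. The diets overlapped, with or without NCD replicate 1. Means were 521 ± 419 on NCD and 556 ± 235 on HFD (SD, n = 3 mice each). At 0.10 on the log2 scale, the difference was within its SE of 0.72 (edgeR adjusted p = 0.942), and without NCD replicate 1 it was -0.35 (SE 0.48, edgeR adjusted p = 0.636).

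*Gpam* (NCBI gene 14732, chr19:55067635-55127319), the mitochondrial acyltransferase that adds the first acyl chain, was measured at 117, 368 and 207 TMM-scaled CPM on NCD against 76.8, 160 and 119 on HFD. NCD replicate 1 lay among the HFD-fed mice, and the other NCD-fed mice lay above all of them. The log2 fold change was -0.96 (SE 0.48, edgeR adjusted p = 0.234), and -1.26 without NCD replicate 1 (SE 0.37, edgeR adjusted p = 0.0654). *Gpam* did not pass in either fit.

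*Agpat2* (NCBI gene 67512, chr2:26593057-26604417) makes phosphatidate in the next step, and its loss causes congenital lipodystrophy. It was measured at 214, 1407 and 1096 TMM-scaled CPM on NCD against 174, 147 and 71.3 on HFD. Every HFD-fed mouse lay below every NCD-fed mouse, although NCD replicate 1 was close to HFD replicate 1. Means were 906 ± 619 on NCD and 131 ± 53.2 on HFD (SD, n = 3 mice each). The log2 fold change was -2.79 (SE 0.75, edgeR adjusted p = 0.0738). Without NCD replicate 1, *Agpat2* fell 9.49-fold (log2 fold change -3.25, SE 0.40, edgeR adjusted p = 0.00829).

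*Lpin1* (NCBI gene 14245, chr12:16535669-16653903), the main phosphatidate phosphatase of adipocytes, was measured at 208, 280 and 189 TMM-scaled CPM on NCD against 124, 79.7 and 46.4 on HFD. The diets did not overlap, and NCD replicate 1 lay between the other NCD-fed mice. Means were 226 ± 47.9 on NCD and 83.5 ± 39.2 on HFD (SD, n = 3 mice each). The log2 fold change was -1.43 (SE 0.39, edgeR adjusted p = 0.0739) and -1.48 without NCD replicate 1 (SE 0.41, edgeR adjusted p = 0.0559), so *Lpin1* did not pass in either fit.

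*Dgat1* (NCBI gene 13350, chr15:76502012-76512021) and *Dgat2* (NCBI gene 67800, chr7:99153663-99182713) encode unrelated enzymes that both add the last acyl chain. *Dgat1* was measured at 77.0, 268 and 320 TMM-scaled CPM on NCD against 143, 146 and 142 on HFD. The HFD-fed mice were nearly equal, and NCD replicate 1 lay below them while the other NCD-fed mice lay above. Its log2 fold change was -0.63 (SE 0.50, edgeR adjusted p = 0.427), and without NCD replicate 1 it fell 2.03-fold (log2 fold change -1.02, SE 0.13, edgeR adjusted p = 0.00927). *Dgat2* was measured at 630, 3425 and 3067 TMM-scaled CPM on NCD against 1708, 925 and 512 on HFD. HFD replicate 1 lay above NCD replicate 1, and the other NCD-fed mice lay above every HFD-fed mouse. Its log2 fold change was -1.18 (SE 0.76, edgeR adjusted p = 0.338) and -1.62 without NCD replicate 1 (SE 0.50, edgeR adjusted p = 0.0722), and it did not pass in either fit.

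*Mogat1* (NCBI gene 68393, chr1:78511060-78606964), a monoacylglycerol acyltransferase of the same protein family as *Dgat2*, had the lowest fold change of the members. Its values were 6.76, 30.1 and 51.5 TMM-scaled CPM on NCD against 3.90, 3.07 and 1.86 on HFD, from 117 to 256 reads on HFD. There was no overlap, and NCD replicate 1 was the NCD-fed mouse nearest to the HFD-fed mice. Means were 29.5 ± 22.4 on NCD and 2.94 ± 1.02 on HFD (SD, n = 3 mice each). The log2 fold change was -3.32 (SE 0.76, edgeR adjusted p = 0.0527), and without NCD replicate 1 *Mogat1* fell 13.8-fold (log2 fold change -3.78, SE 0.38, edgeR adjusted p = 0.00659).

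**Figure D1:**
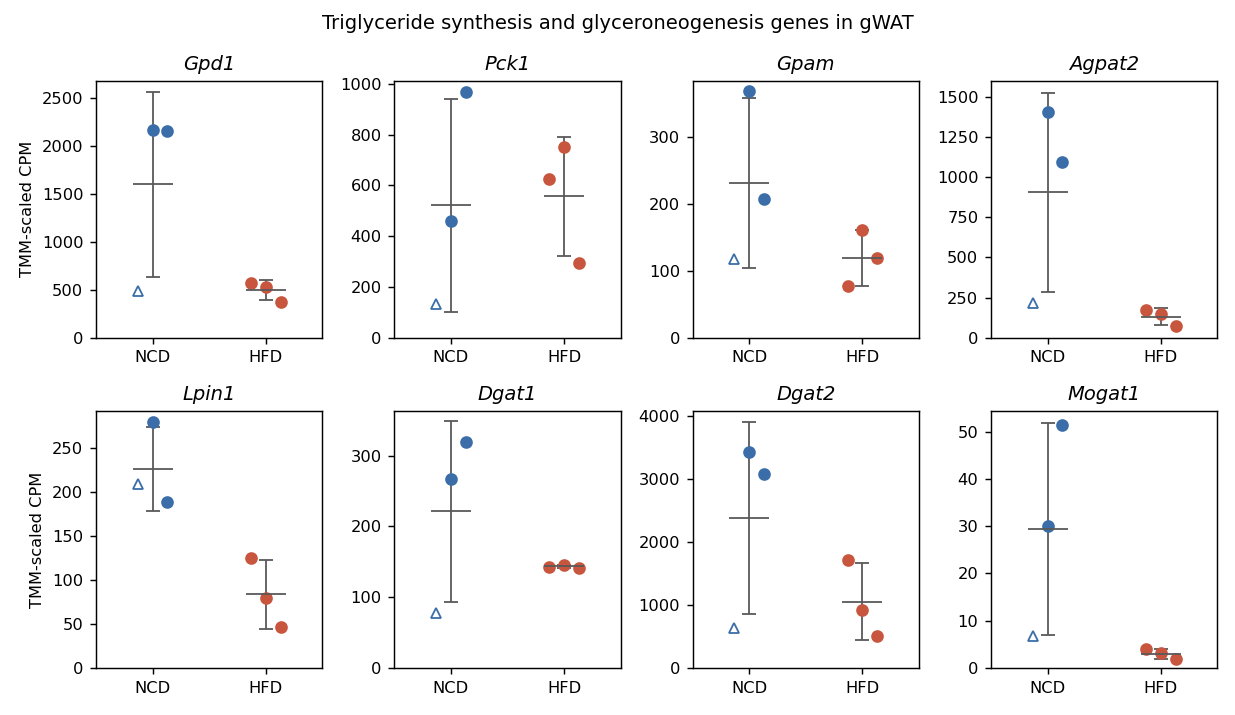
TMM-scaled CPM (y axis, linear, from 0) of the 8 genes in each mouse by diet; points are mice, the open triangle is NCD replicate 1, horizontal marks are means and bars are 1 SD over 3 mice. In 7 of the 8 panels NCD replicates 2 and 3 lie above every HFD-fed mouse, an order that 29.5% of all genes tested share, and *Pck1* is the exception.

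Counted together, 0 of the 8 members passed edgeR's adjusted threshold with all 6 mice, where 7.47% of the 15241 genes tested passed in either direction and 1.90% passed as lower on HFD. At an unadjusted p under 0.05, 4 of the 8 (*Gpd1*, *Agpat2*, *Lpin1* and *Mogat1*) passed in edgeR, against 29.7% of all genes tested, and the same 4 passed the adjusted threshold in DESeq2, all lower on HFD, where 10.4% of genes were called lower. Without NCD replicate 1, 4 of the 8 (*Gpd1*, *Agpat2*, *Dgat1* and *Mogat1*) passed in edgeR, all lower, where 10.1% of 15510 genes were called lower and 20.9% were called in either direction. The median log2 fold change of the members was -1.31 with all mice and -1.55 without NCD replicate 1, against -0.08 and 0.02 over all genes tested. In 3 members (*Agpat2*, *Lpin1* and *Mogat1*) every HFD-fed mouse lay below every NCD-fed mouse, as it did for 18.7% of all genes tested. Set against NCD replicates 2 and 3 alone, every HFD-fed mouse was lower for 7 of the 8 members and for 29.5% of all genes tested. DESeq2 without NCD replicate 1 called 7 of the 8 lower, with 14.5% of its genes called lower. With the seminal vesicle genes removed and scaling by total counts only, edgeR called 1 (*Mogat1*), with 1.80% called lower. For *Agpat2*, *Lpin1* and *Mogat1*, permuting the diets of all 6 mice exactly (two-sided) gave p = 0.1 each, and 3 mice against 3 cannot go lower. Groups that do not overlap always give this value, so it adds nothing to the order of the mice. The same permutation test gave p of at least 0.3 for every other member.

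**Figure D2:**
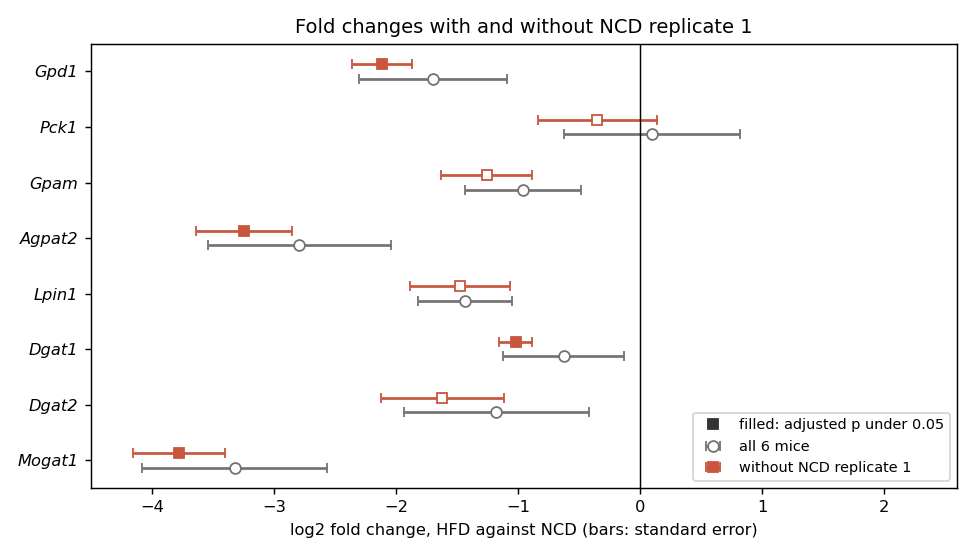
Log2 fold change of HFD against NCD (x axis) with its standard error for the 8 genes, from edgeR on all 6 mice (circles) and without NCD replicate 1 (squares); filled marks passed an adjusted p of 0.05. No circle is filled, 4 squares are, and 7 genes lie left of 0 in both fits.

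Levels of different genes were compared as FPKM, which divides counts by gene length and library total. *Dgat2* had the highest FPKM of the members in every mouse, at 138, 1547 and 1453 FPKM on NCD against 873, 514 and 286 FPKM on HFD. *Gpd1* and *Agpat2* took the next places in every NCD-fed mouse, at 84.0 and 71.2 FPKM in NCD replicate 1, 774 and 966 FPKM in NCD replicate 2, and 808 and 789 FPKM in NCD replicate 3. Their order changed between NCD-fed mice, so they are not separated there. On HFD, *Pck1* was above *Agpat2* in every mouse, with *Pck1* at 271, 354 and 140 FPKM and *Agpat2* at 135, 124 and 60.7 FPKM. *Mogat1* was the lowest member in 5 of the 6 mice, and in NCD replicate 3 it was above *Gpam* and *Lpin1*. Together the 8 genes took 0.859% and 0.863% of the counts in NCD replicates 2 and 3, 0.0928% in NCD replicate 1 and between 0.198% and 0.397% on HFD.

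Within a mouse, the share of an isoenzyme is untouched by the scaling between libraries. Each is the member's share of the summed FPKM of its family, and 7 families were compared by exact two-sided permutation tests, with p = 0.1 the smallest possible. *Agpat2* made up 68.7%, 92.5% and 90.3% of the AGPAT family (*Agpat1* to *Agpat5*) in NCD replicates 1, 2 and 3 and 62.7%, 58.2% and 40.6% in HFD replicates 1, 2 and 3. There was no overlap, with 83.9 ± 13.2% on NCD and 53.8 ± 11.7% on HFD (SD, n = 3 mice each). The exact permutation p was 0.1, or 0.233 adjusted over the families. The shares of *Agpat1*, *Agpat3* and *Agpat4* were higher in every HFD-fed mouse than in every NCD-fed mouse. That of *Agpat4* was 1.23%, 0.425% and 0.370% on NCD and 4.83%, 5.92% and 9.46% on HFD. A smaller share of *Agpat2* by itself makes the other shares larger. In level, *Agpat1* and *Agpat3* did not rise, with log2 fold changes of -0.16 and -0.31 (edgeR adjusted p = 0.457 and 0.301).

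*Mogat1* was the larger part of the MOGAT pair on NCD and the smaller part on HFD. It made up 77.4%, 68.0% and 85.9% on NCD against 23.9%, 39.8% and 34.6% on HFD (exact permutation p = 0.1, adjusted 0.233). The remainder was *Mogat2*, better known from the intestine, whose own log2 fold change was -0.26 (edgeR adjusted p = 0.844). *Lpin1* made up 71.4%, 84.9% and 80.7% of the lipins on NCD and 70.7%, 64.2% and 42.3% on HFD (exact permutation p = 0.1, adjusted 0.233). No HFD-fed mouse reached the NCD range, although NCD replicate 1 and HFD replicate 1 were nearly equal. This order of *Lpin1* rested on the FPKM scale. As shares of counts, without gene length, its difference was -18.6 points (exact permutation p = 0.2), and the diets overlapped. Shares of counts left *Agpat2* and *Mogat1* at an exact permutation p of 0.1.

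In the other families the share of the member overlapped between the diets. *Gpam* made up 35.1%, 33.9% and 21.3% of the GPAT family on NCD and 29.2%, 42.2% and 39.9% on HFD (exact permutation p = 0.3). In the same family the share of *Gpat3*, no member, did not overlap, at 28.9%, 48.0% and 56.7% on NCD and 27.3%, 26.6% and 24.4% on HFD. *Dgat2* made up at least 75.1% of the DGAT pair in every mouse, with 87.2%, 91.4% and 88.9% on NCD and 90.9%, 84.1% and 75.1% on HFD (exact permutation p = 0.3). *Pck1* made up 95.5% to 98.7% of the cytosolic and mitochondrial pair *Pck1* and *Pck2* in 5 mice and 70.3% in NCD replicate 1, the library rich in seminal vesicle RNA. *Gpd1* made up between 92.6% and 98.4% of its pair with *Gpd1l* in every mouse.

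**Figure D3:**
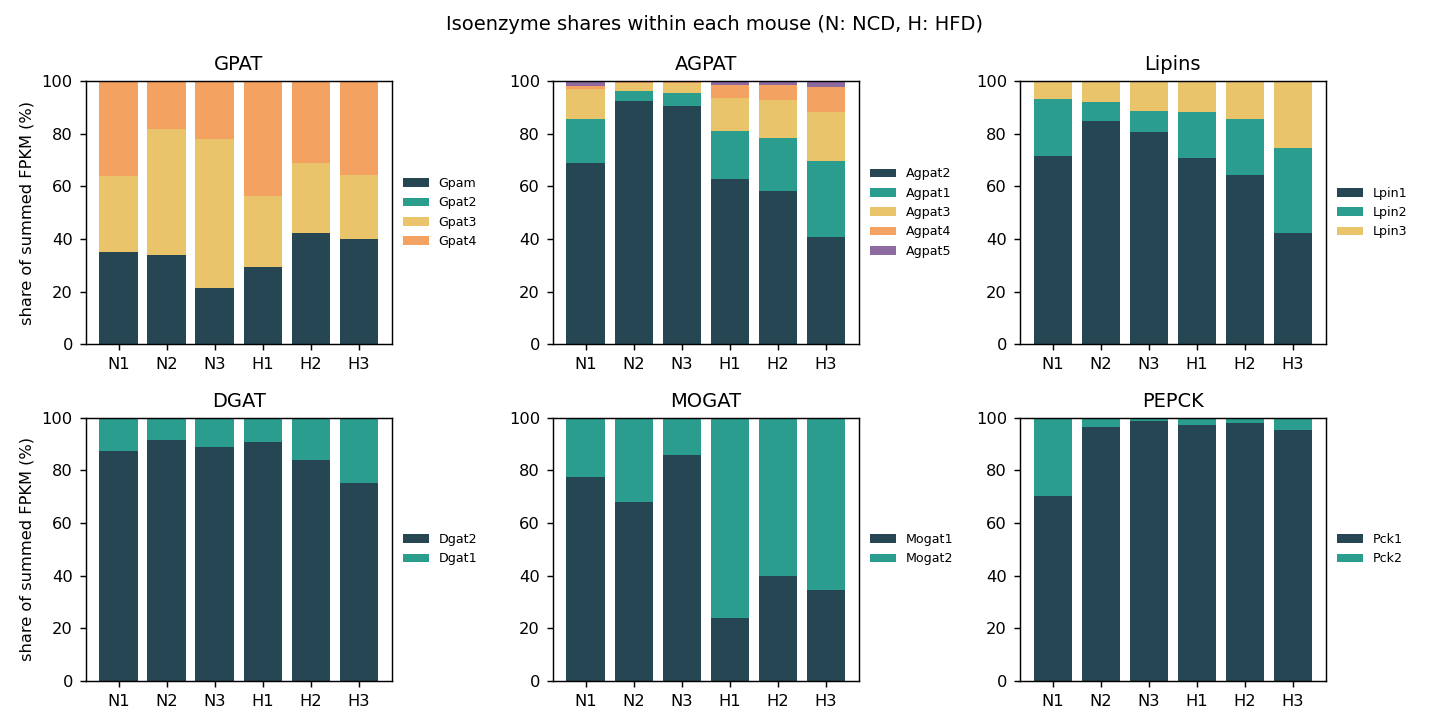
Share of each isoenzyme in the summed FPKM of its family (y axis, percent) in every mouse (x axis, N for NCD and H for HFD replicates) for 6 families; colours are genes. The shares of *Agpat2*, *Lpin1* and *Mogat1* are smaller in each HFD-fed mouse than in each NCD-fed mouse.

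The rest of the pathway was read from a list of 29 other genes, of which 28 had enough counts; *Gpat2* had at most 10 counts in a library. With all 6 mice 3 of the 28 passed, 2 higher and 1 lower, and without NCD replicate 1 13 of the 28 passed, 4 higher and 9 lower, beside 7.47% and 20.9% of all genes. The median log2 fold change of the list was -0.29 with all mice. That median became 0.13 when only total counts were used for scaling, a setting in which the median of all genes moved to 0.45.

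Among the genes that supply fatty acyl-CoA, *Acsl5* was measured at 76.5, 76.2 and 73.7 TMM-scaled CPM on NCD against 128, 123 and 124 on HFD. It rose by a log2 fold change of 0.73 (SE 0.12, edgeR adjusted p = 0.0294). *Acsl3* fell without NCD replicate 1 (log2 fold change -1.13, edgeR adjusted p = 0.0427). *Acsl1*, the main form of adipocytes, did not pass in either edgeR fit. Its log2 fold change was -0.44 with all mice (edgeR adjusted p = 0.593) and -0.80 without NCD replicate 1 (edgeR adjusted p = 0.0926).

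*Gpat3*, a GPAT of the endoplasmic reticulum, was measured at 49.7, 268 and 283 TMM-scaled CPM on NCD against 37.0, 52.0 and 37.5 on HFD. NCD replicate 1 lay among the HFD-fed mice. Without that library *Gpat3* fell by 2.69 on the log2 scale (SE 0.19, edgeR adjusted p = 0.00544) and *Gpat4* by 0.84 (edgeR adjusted p = 0.0101). *Agpat4* rose in both fits, from 4.93, 8.31 and 5.77 to 17.2, 19.3 and 21.4 TMM-scaled CPM (log2 fold change 1.60, SE 0.25, edgeR adjusted p = 0.0253). The macrophage markers given above were also higher on HFD, and their part in the rise of *Agpat4* and *Acsl5* was not tested.

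Of the 11 listed genes of carbon supply, from pyruvate to dihydroxyacetone phosphate, 1 passed with all mice (*Mdh1*, lower). Without NCD replicate 1, 5 passed as lower, 1 passed as higher (*Got1*) and 5 did not pass (*Pck2*, *Got2*, *Eno1*, *Pgam1* and *Pgk1*). Over all genes tested, 7.47% passed in either direction with all mice. Without NCD replicate 1, 20.9% passed in either direction and 10.1% passed as lower. *Pcx*, pyruvate carboxylase, was measured at 549, 2131 and 2233 TMM-scaled CPM on NCD against 333, 286 and 182 on HFD. Every HFD-fed mouse lay below every NCD-fed mouse. *Pcx* fell by 3.02 on the log2 scale without NCD replicate 1 (SE 0.30, edgeR adjusted p = 0.00654), and with all mice the log2 fold change was -2.62 (edgeR adjusted p = 0.0549). *Mdh1*, cytosolic malate dehydrogenase, fell in both fits, from 573, 462 and 725 to 238, 152 and 154 TMM-scaled CPM (log2 fold change -1.69, SE 0.30, edgeR adjusted p = 0.0302). Its mitochondrial counterpart *Mdh2* fell without NCD replicate 1 (-1.01, edgeR adjusted p = 0.00885). *Gapdh* and *Tpi1*, on the way from phosphoenolpyruvate to dihydroxyacetone phosphate, also fell there (-1.07 and -0.58, adjusted p = 0.00931 and 0.0403 from edgeR). *Got1*, cytosolic aspartate aminotransferase, had 42.0 TMM-scaled CPM in NCD replicate 1, 10.2 and 6.96 in the other NCD-fed mice and 18.5 to 23.1 on HFD. It rose without NCD replicate 1 (log2 fold change 1.28, edgeR adjusted p = 0.0159), while its log2 fold change with all mice was 0.07.

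Glycerol itself can be phosphorylated by glycerol kinase, *Gk*, which was measured at 5.63, 14.3 and 11.7 TMM-scaled CPM on NCD against 26.9, 28.5 and 36.9 on HFD. All HFD-fed mice lay above all NCD-fed mice, and *Gk* rose without NCD replicate 1 (log2 fold change 1.26, SE 0.20, edgeR adjusted p = 0.0136; 1.54 and adjusted p = 0.0560 with all mice). *Aqp7*, the glycerol channel, was at 0.91 (edgeR adjusted p = 0.363). *Gpd2*, the mitochondrial glycerol 3-phosphate dehydrogenase, fell without NCD replicate 1 (-1.93, SE 0.18, edgeR adjusted p = 0.00628).

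**Figure D4:**
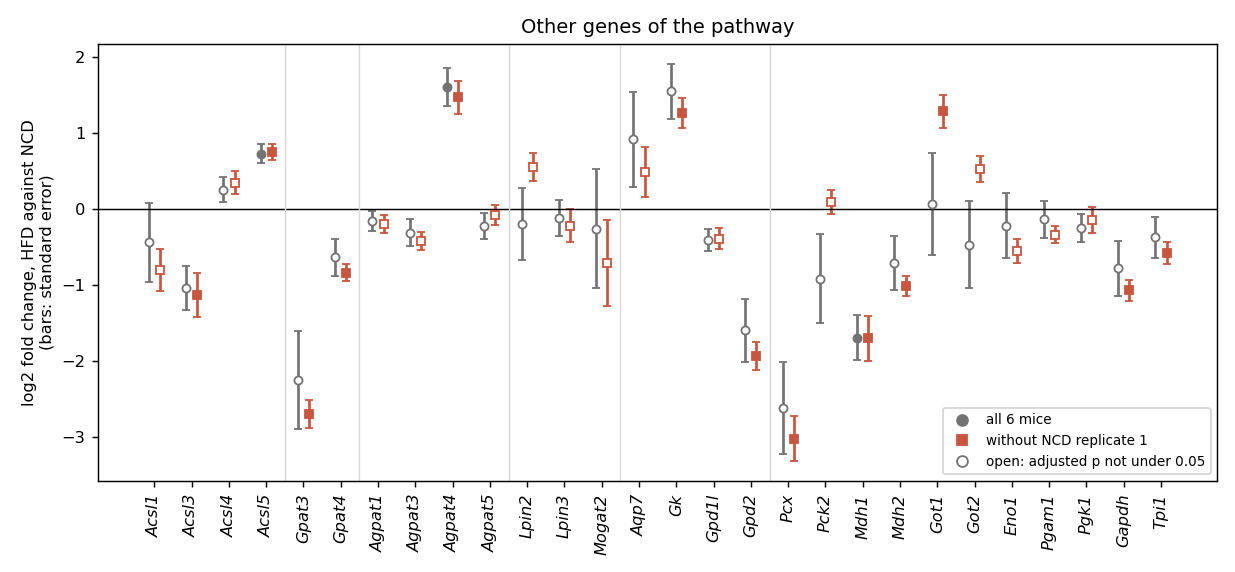
Log2 fold change of HFD against NCD (y axis) with its standard error for the 28 other pathway genes tested, from edgeR on all 6 mice (circles) and without NCD replicate 1 (squares); filled marks passed an adjusted p of 0.05 and vertical lines part the acyl-CoA, GPAT, AGPAT, lipin with MOGAT, glycerol and carbon supply genes. *Pcx* and *Gpat3* lie lowest in both fits, and *Agpat4* and *Gk* have the highest circles.

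To set the members against adipocyte RNA of the same mouse, each was divided by the geometric mean of 6 adipocyte markers (*Adipoq*, *Plin1*, *Cidec*, *Fabp4*, *Lipe* and *Pparg*). That mean was 182, 1499 and 2046 CPM in NCD replicates 1, 2 and 3 and 1210, 1400 and 1019 CPM in HFD replicates 1, 2 and 3. Of the 6 markers, 3 (*Plin1*, *Lipe* and *Pparg*) were themselves lower on HFD without NCD replicate 1. The median log2 ratio over all genes tested was -4.22, -6.30 and -6.70 on NCD and -5.79, -5.84 and -5.38 on HFD. It was thus highest in NCD replicate 1. On this scale NCD replicate 1 no longer lay among the HFD-fed mice for *Gpd1*. The log2 ratio of *Gpd1* was 0.40, 0.56 and 0.18 on NCD against -0.86, -1.07 and -1.09 on HFD, a 2.62-fold lower mean ratio on HFD.

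The log2 ratio of *Agpat2* was -0.77, -0.06 and -0.80 on NCD and -2.59, -2.92 and -3.50 on HFD, and that of *Mogat1* was -5.72, -5.60 and -5.21 on NCD and -8.04, -8.47 and -8.69 on HFD. The diets did not overlap in these 3 of the 8 members (exact permutation p = 0.1, adjusted over the 8 members 0.267), where 5.20% of all genes tested had every HFD-fed mouse below every NCD-fed mouse. The mean ratio was 5.49-fold lower on HFD for *Agpat2* and 7.41-fold lower for *Mogat1*. In *Dgat1* the diets overlapped, at -2.25, -2.45 and -2.58 on NCD and -2.88, -2.93 and -2.51 on HFD, a difference of -0.34 (exact permutation p = 0.2). *Lpin1* was at -0.81 in NCD replicate 1, far above the -2.39 and -3.34 of the other NCD-fed mice, and at -3.07 to -4.12 on HFD. *Pck1* was the member whose mean ratio was higher on HFD, by 0.44 (exact permutation p = 0.3).

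**Figure D5:**
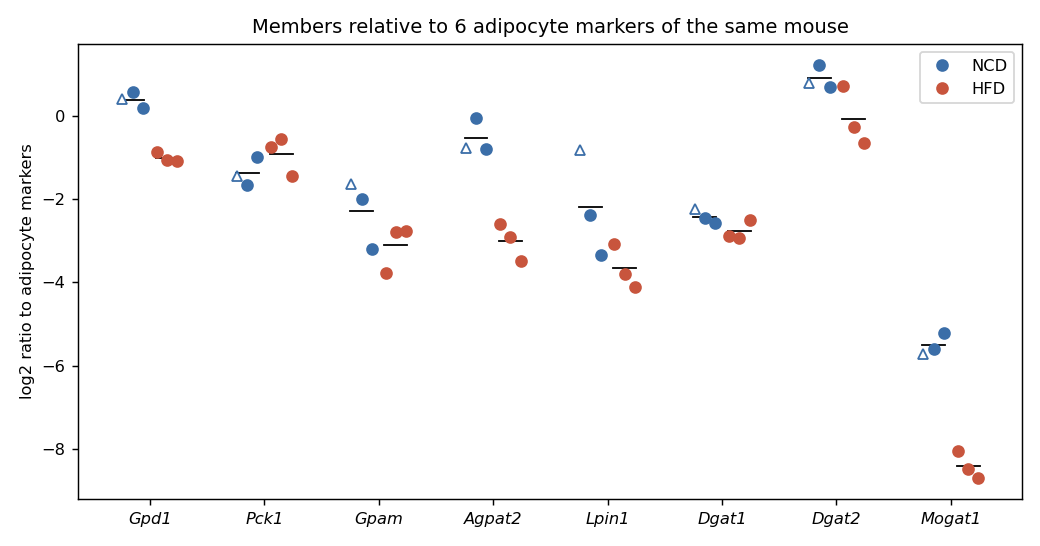
Log2 ratio of each member to the geometric mean of 6 adipocyte markers in the same mouse (y axis), by gene and diet; points are mice, the open triangle is NCD replicate 1 and lines are means. The diets separate for *Gpd1*, *Agpat2* and *Mogat1*, and *Lpin1* of NCD replicate 1 lies above the rest of its group.

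For each member the closest other gene was found by its log2 TMM-scaled CPM over the 6 mice, centred on its own mean, as the gene with the smallest largest gap in any mouse. *Slc25a1*, the mitochondrial citrate carrier, stayed within 0.30 log2 units of *Mogat1* in every mouse, *Mpc2*, a subunit of the mitochondrial pyruvate carrier, within 0.22 of *Gpd1*, and *Ldha*, lactate dehydrogenase A, within 0.15 of *Dgat1*. *Ppp1r1a* stayed within 0.35 of *Agpat2*, *Heph* within 0.27 of *Lpin1*, *Trpm3* within 0.16 of *Gpam*, *Ncan* within 0.37 of *Dgat2* and *Hs3st6* within 0.28 of *Pck1*. Levels of *Trpm3* and *Hs3st6* were low, at most 1.72 and 3.15 TMM-scaled CPM. Among the members themselves, *Agpat2* and *Mogat1* were the closest pair, with a largest gap of 0.77 log2 units.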

How the data were processed

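RNA of gWAT was sequenced from 6 mice and the values used are counts. The authors deposited a table of read counts for 19790 genes, listed by NCBI gene identifier, with 1 column per mouse and no normalization. The submitters' processing notes name bcl2fastq 2.20.0, Trimmomatic, HISAT2 2.1.0, StringTie 1.3.4d, DESeq2 and the builds mm10 and GRCm38, without saying which step each served; for the strand setting of the counting, the sources used here give nothing. Symbols were found for 19742 identifiers in RefSeq's annotation of GRCm38.p6, all 8 members among them. Column names match the description label of each sample; the third HFD replicate carries the number 4 there.

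Genes were kept by filterByExpr (at least 10 counts, 15 in total). edgeR 4.0.16 in R 4.3.3 then gave TMM factors and quasi-likelihood tests (glmQLFit, glmQLFTest), and p-values of the 15241 tested genes were adjusted by Benjamini-Hochberg, calls being those under 0.05. For each log2 fold change, SE is its absolute value over the square root of F. TMM-scaled CPM is counts over the library total times the TMM factor, on the usual CPM scale. Lengths for FPKM, worked out from the same counts and totals, were the union of exons of GENCODE vM21 basic transcripts. Ratios to adipocyte markers used log2(CPM + 0.1). Permutation tests over mice were exact and two-sided. Isoenzyme shares were also taken from counts, without gene length. Alternatives were no filter, median-of-ratios scaling, total counts, removal of 11 seminal vesicle genes together with total counts, DESeq2 1.42.0, each mouse left out, and the replicate number as a block. The fitting code was tested on simulated data. There it recovered 8.43% of the genes changed by 1 on the log2 scale and 65.5% of those changed by 2. Of its 79 calls 0 were false.

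The text names all 8 members, their isoenzymes, the genes of a fixed pathway list that passed, and for each member the closest other gene. The members and lists were chosen with earlier results of these data known. Replicates were given separate sample records, and nothing in the labels says more on how mice were kept apart, so p-values measure the spread between these samples. Depth was 49575113 to 66360046 counts. Figures were drawn with matplotlib 3.10.9.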

Additional observations from a re-analysis of the deposited data

How the results depend on the processing

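The number of members past the threshold, 0 with all 6 mice in edgeR, was 4 without NCD replicate 1 and 0 without any other mouse (range 0 to 4). It was 1 after removing the seminal vesicle genes (*Mogat1*, log2 fold change -3.21), 4 in DESeq2 and 7 in DESeq2 without NCD replicate 1. That removal was fitted with scaling by total counts only, here and below. The DESeq2 log2 fold changes of those called were -2.78 for *Agpat2*, -1.42 for *Lpin1*, -3.31 for *Mogat1* and -1.69 for *Gpd1*, and without NCD replicate 1 they were -1.27 for *Gpam*, -3.25 for *Agpat2*, -1.48 for *Lpin1*, -1.03 for *Dgat1*, -1.62 for *Dgat2*, -3.79 for *Mogat1* and -2.12 for *Gpd1*. The pathway count, 3, was 13 without NCD replicate 1 and 0 without any other mouse (range 0 to 13), 1 with total counts, 5 after removing the seminal vesicle genes, 8 in DESeq2 and 19 in DESeq2 without NCD replicate 1. The count of all genes, 1139, ranged from 2 to 3234 with a mouse left out and was 3853 in DESeq2 (23.0% of its genes), 5118 in DESeq2 without NCD replicate 1 (30.7%), 1419 of 15251 after removing the seminal vesicle genes (9.30%) and 959 with total counts (6.29%); without HFD replicates 2 and 3 it was 7 and 4, and without NCD replicate 2, NCD replicate 3 or HFD replicate 1 it was 2. With a mouse left out, log2 fold changes ranged from -3.25 to -2.33 for *Agpat2*, -1.02 to -0.25 for *Dgat1*, -1.72 to -0.82 for *Dgat2*, -1.83 to -1.13 for *Lpin1*, -1.26 to -0.45 for *Gpam* (-0.45 without NCD replicate 2), -3.78 to -2.64 for *Mogat1*, -2.12 to -1.41 for *Gpd1* and -0.35 to 0.91 for *Pck1*. *Pck1* reversed to -0.35 without NCD replicate 1 (-0.35 in DESeq2 too) and to -0.17 without HFD replicate 2. Its isoenzyme share difference, 8.45 points, ranged from -0.69 to 13.5 and reversed to -0.69 without NCD replicate 1. The ratio of *Dgat1* to adipocyte markers reversed to 0.11 with *Plin1* alone. The causes were not tested. The other 7 members kept their negative sign in all 13 alternatives, total counts included, where the all-gene median went from -0.08 to 0.45. Same-numbered mice did not deviate together over the genes tested (correlations -0.06, -0.05 and 0.01). Such correlations cannot show whether mice shared a cage, litter or batch, which the labels do not give. With the replicate number as a block, 12 genes, 0 members and 0 pathway genes passed.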

Other observations

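The ratio of *Pck1* to each of the other 7 members within a mouse was looked at after the values had been seen, and is given as a description with no test. In FPKM, *Pck1* was 0.299, 0.228 and 0.482 times *Gpd1* in NCD replicates 1, 2 and 3 and 1.17, 1.52 and 0.839 times *Gpd1* in HFD replicates 1, 2 and 3. It was 0.352, 0.183 and 0.494 times *Agpat2* on NCD and 2.01, 2.85 and 2.31 times on HFD, and 0.182, 0.114 and 0.268 times *Dgat2* on NCD and 0.311, 0.689 and 0.489 times on HFD. Against *Mogat1* it was 9.22, 7.08 and 8.69 on NCD and 74.1, 113 and 73.0 on HFD. The diets did not overlap in these 4 ratios. They overlapped in the other 3, with *Dgat1* at 1.24, 1.22 and 2.15 on NCD and 3.11, 3.64 and 1.48 on HFD, *Gpam* at 2.74, 2.98 and 11.2 on NCD and 19.4, 11.2 and 5.90 on HFD, and *Lpin1* at 1.504, 3.83 and 11.9 on NCD and 11.7, 21.9 and 14.8 on HFD. Over all 15240 other genes tested, the ratio of *Pck1* to the gene was higher in every HFD-fed mouse than in every NCD-fed mouse for 4.23%. *Pck2*, the mitochondrial form, had 99.1 TMM-scaled CPM in NCD replicate 1, where the remaining 5 mice had 22.1 to 29.2, and *Lpin2* had 64.2 there and 18.8 to 35.5 elsewhere. *Got2*, like *Got1*, was highest in NCD replicate 1, at 159 TMM-scaled CPM against 34.4 to 62.1 in the others.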
